A study of Mus musculus with 6 samples.

Results

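This account follows 10 genes that mark fibroblasts and other mesenchymal cells through cultures of primary mouse keratinocytes: *Col1a1*, *Col1a2*, *Col3a1*, *Vim*, *Pdgfra*, *Pdgfrb*, *Dcn*, *Lum*, *Sparc* and *Thy1*. They were taken by name from the gene-level count table, in which all 10 were found among 55367 gene rows, and all 10 were among the 14916 genes with enough counts to be tested. Their levels were 2.77-fold (*Sparc*) to 48.6-fold (*Lum*) higher in the third batch than in the other batches, as ratios of mean CPM (counts scaled to a common library size), and within batches 2 fibrillar collagen genes, *Col1a2* and *Col3a1*, were lower in iASPP KO than in iASPP WT cultures. The call for *Col1a2* was lost when any 1 batch was left out and that for *Col3a1* without batch 2 or batch 3. With no batch term 0 of the 14916 genes tested were called, so both of these calls were lost as well.

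Dermal fibroblasts build the connective tissue under the epidermis. They secrete the fibrillar collagens and the small proteoglycans that space the collagen fibrils, carry receptors for platelet-derived growth factor (PDGF), and hold their shape with the intermediate filament vimentin, whereas keratinocytes use keratins and cadherin junctions. Epidermal cells that lose their junctions and take on mesenchymal traits can also switch on some of these genes, so a marker alone does not name the cell of origin, and vimentin is expressed by many other cell types, melanocytes and leukocytes included.

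The cells were isolated with trypsin from the skin of 2-day-old pups carrying *Ppp1r13l* flox/flox;Cre+ERT on a mixed C57BL/6 and 129/Sv background and were grown on rat collagen I in low-calcium medium. *Ppp1r13l* encodes iASPP, an inhibitor of p53 that also binds p63, and the Cre, inserted at the *Rosa26* locus, is not limited to keratinocytes, so any dermal cell in the dish would carry it too. After 24 h the medium was changed to one with tamoxifen (iASPP KO, 3 libraries) or without it (iASPP WT, 3 libraries), at a concentration that the sample labels give as 1 mM and the study's methods as 1 µM, and each of 3 batches held 1 culture of each kind. Both groups thus carried the floxed allele and the inducible Cre, and the deletion cannot be told apart from exposure to tamoxifen.

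The libraries held 20202517 to 25157117 counts assigned to genes, and 3 counts correspond to 0.123 to 0.141 CPM. *Ppp1r13l* itself stood, in order of batch, at 14.3, 17.7 and 5.91 CPM in iASPP KO and at 32.7, 45.1 and 21 CPM in iASPP WT, a fall in each batch that left counts over the gene in every KO library. The study reported that immunofluorescence found no iASPP in such cells after tamoxifen. In its other Cre line the loxP sites flank a single exon. These counts cover the whole gene, so they do not gauge how complete the deletion was. The keratinocyte label held against its markers, since *Krt14*, a keratin of basal keratinocytes, was at 15900 ± 1440 CPM in KO and 16100 ± 1020 CPM in WT (SD, n = 3 each). Batch 3 stood apart from the others before any marker was considered: 2037 genes (13.7% of those tested) differed between batches 3 and 1 and 2603 (17.5%) between batches 3 and 2, against 73 (0.489%) between batches 2 and 1 (edgeR's quasi-likelihood test, Benjamini-Hochberg adjusted p under 0.05). Each batch held 1 KO and 1 WT culture, and the fit has terms for batch and condition. The tests between batches thus set batch differences against how unevenly KO and WT differed from batch to batch, not against repeats of a batch. The labels say neither what a batch shared nor whether its cultures came from the same cells.

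The 10 genes are protein-coding and lie on separate stretches of the mouse genome (mm10, GRCm38). *Col1a1* lies at chr11:94936224-94953042, *Col1a2* at chr6:4504814-4541544 and *Col3a1* at chr1:45311538-45349706. *Vim* lies at chr2:13573927-13582826, *Pdgfra* at chr5:75152292-75198215, *Sparc* at chr11:55394500-55423183 and *Thy1* at chr9:44043384-44048579. *Dcn* (chr10:97479609-97518143) and *Lum* (chr10:97565128-97572703) are neighbours on chromosome 10. Exons of other genes on the same strand overlapped 1.44% of the exon bases of *Col3a1* and 0.299% of those of *Pdgfra*, and none of those of the other members. Of all windows of 42 bases, the read length, in each gene's longest transcript, at most 1.81% (*Col3a1*) also occurred in a transcript of another gene, so that shared reads could move the counts of these genes little.

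Since the members rose together between batches, the bases upstream of their RefSeq start sites are shown for the collagen genes that moved most and for *Pdgfra*, which followed a pattern of its own. For *Col1a2* the stretch lies inside the gene span given above, which begins earlier, at chr6:4504814. RefSeq promoter sequences (GRCm38.p6) matched 5 of the 10 members (*Col1a2*, *Col3a1*, *Vim*, *Pdgfra* and *Sparc*), and the 250 bases before the start were searched on both strands for the AP-1 site TGANTCA, which reads the same on either strand, the CCAAT box CCAAT, the TATA box TATAAA and the GC box GGGCGG, and no match overlapped another. The stretches below are the parts of those windows that lie outside annotated exons, 5′ to 3′ on the plus strand, with any match to these motifs in capitals.
*Col1a2*, chr6:4505370-4505492: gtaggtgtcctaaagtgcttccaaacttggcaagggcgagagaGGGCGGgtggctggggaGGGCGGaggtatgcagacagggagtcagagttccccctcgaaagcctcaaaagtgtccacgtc
*Col3a1*, chr1:45311288-45311537: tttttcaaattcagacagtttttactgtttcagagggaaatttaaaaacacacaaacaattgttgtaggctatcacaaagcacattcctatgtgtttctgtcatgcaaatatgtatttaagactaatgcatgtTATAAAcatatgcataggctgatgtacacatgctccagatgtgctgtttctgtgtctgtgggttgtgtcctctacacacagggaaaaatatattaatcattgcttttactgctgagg
*Pdgfra*, chr5:75152001-75152250: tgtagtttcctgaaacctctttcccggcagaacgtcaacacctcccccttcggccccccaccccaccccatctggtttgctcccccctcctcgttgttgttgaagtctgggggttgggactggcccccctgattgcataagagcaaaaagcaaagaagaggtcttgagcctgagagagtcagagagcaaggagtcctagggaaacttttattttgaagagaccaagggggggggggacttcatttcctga

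*Col1a2* held 2 GC boxes in the stretch shown and 1 CCAAT box downstream of it in its window. *Col3a1* held 1 match to the TATA box letters, and none of the 4 motifs occurred in the windows of *Pdgfra* and *Sparc*. Matches were counted at any distance from the start within the window, and whether any of them works as a promoter element was not tested. The *Vim* window held 2 CCAAT boxes and 1 TATA box. The AP-1 letters occurred in 0 of the 5 windows, against 6.87% of 27025 promoter windows of the same length, where the CCAAT box occurred in 34.5%, the TATA box in 13.0% and the GC box in 32.9%. The GC content of the stretches shown was 59.3% for *Col1a2*, 35.2% for *Col3a1* and 54.4% for *Pdgfra*, and the windows of the 2 collagen genes had none of these motifs in common.

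The first comparison asked how the markers' levels differed between batches. All 10 members differed among the 3 batches (edgeR F test on the batch terms, adjusted over all genes tested), against 15.8% of all genes tested. All 10 were higher in batch 3 than in batch 1, as were 5.26% of all genes, and higher than in batch 2, as were 7.39%, and 3.85% of all genes passed in both. *Lum* passed the count filter only through its counts in batch 3, and without that batch 9 members were tested. Its place in these counts and in those that follow for batch 3 was thus partly fixed in advance. Summed over the 10, the markers made up 0.00969% to 0.012% of all counts in the 4 libraries of batches 1 and 2, and 0.081% (KO) and 0.108% (WT) in batch 3. In RNA from a whole dish, more cells of a type and more RNA of these genes per cell cannot be told apart.

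**Figure D1:**
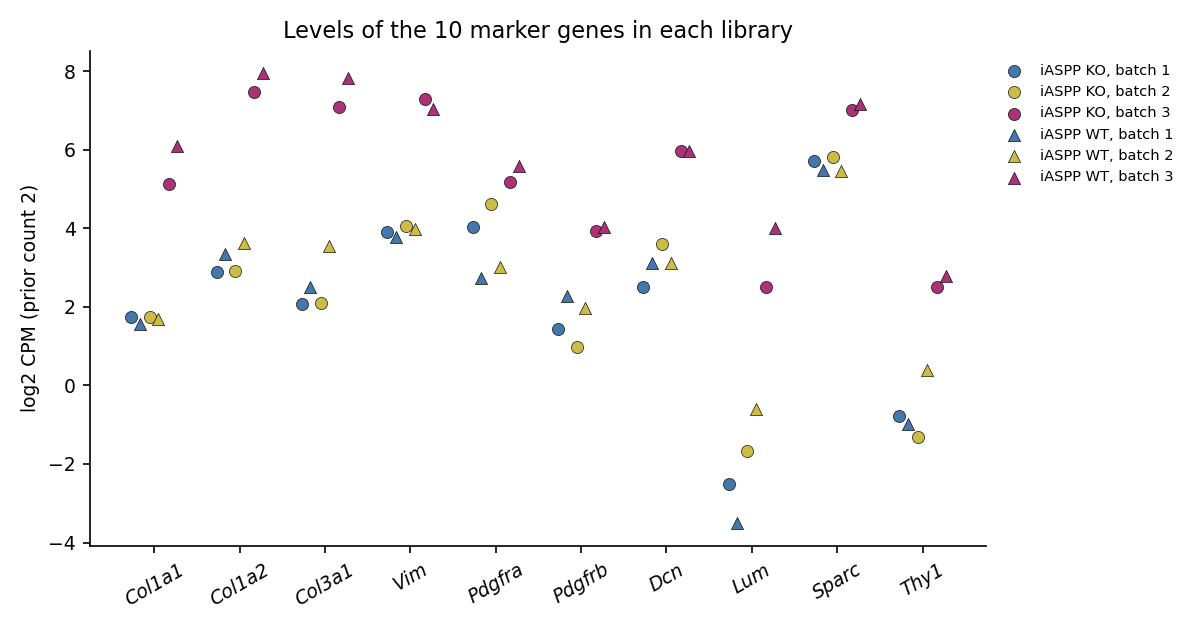
Level of each marker gene in each library, on the vertical axis as log2 CPM with a prior count of 2; circles are iASPP KO, triangles iASPP WT, and colours mark the batches. Both libraries of batch 3 sit above the other 4 for all 10 genes, and *Lum* and *Thy1* lie lowest in batches 1 and 2.

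The fibrillar collagens rose furthest among the well-counted members. *Col1a1* and *Col1a2* encode the chains of type I collagen, the main protein of the dermis. *Col1a1* was at 3.25, 3.23 and 34.8 CPM in KO and at 2.86, 3.12 and 68.1 CPM in WT, each in order of batch 1, 2 and 3, the order kept for all genes that follow. *Col1a2* was at 7.31, 7.45 and 177.9 CPM in KO and at 10.03, 12.3 and 247 CPM in WT. The 4 libraries of batches 1 and 2 were close together for both genes, and the 2 of batch 3 were more than 10-fold above them. In the fit, *Col1a1* was higher in batch 3 by 4.02 ± 0.33 (log2 fold change ± SE) than in batch 1 and by 3.97 ± 0.32 than in batch 2 (edgeR, adjusted p = 7.23e-05 and 5.81e-05). *Col1a2* was higher by 4.62 ± 0.17 and 4.45 ± 0.17 (adjusted p = 1.18e-06 and 1.16e-06), a 24.5-fold and a 21.8-fold difference. Per length of exon, *Col1a2* lay above *Col1a1* in all 6 libraries, at 0.588 against 0.495 CPM per kilobase (RPKM) in the KO culture of batch 1 and 19.9 against 10.4 RPKM in the WT culture of batch 3.

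*Col3a1*, the single chain of type III collagen, which is laid down beside type I collagen in young and healing skin, was at 4.14, 4.22 and 136 CPM in KO and at 5.62, 11.6 and 227 CPM in WT. Of the members with more than 10 counts in every library it had the largest difference, 5.20 ± 0.25 against batch 1 and 4.6 ± 0.24 against batch 2 on the log2 scale, or 36.6-fold and 24.3-fold (edgeR, adjusted p = 3e-06 and 5.54e-06). Between batches 2 and 1 it differed by 0.59 ± 0.24, which was not called (edgeR, adjusted p = 0.513).

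Decorin and lumican are small leucine-rich proteoglycans that bind collagen fibrils and set their width and spacing. *Dcn* was at 5.61, 12.03 and 63.0 CPM in KO and at 8.62, 8.53 and 62.04 CPM in WT, so that the KO and WT cultures of batch 3 were nearly equal. It was higher in batch 3 by 3.14 ± 0.27 than in batch 1 and by 2.60 ± 0.26 than in batch 2 (edgeR, adjusted p = 0.00011 and 0.000177). *Lum* was close to the limit of detection outside batch 3, with 2, 5 and 132 counts in KO and 0, 14 and 358 counts in WT. Its counts per effective library size were 233-fold higher in batch 3 than in batch 1 (exact 95% interval 64.1 to 1930, which covers counting error only) and 26.1-fold higher than in batch 2 (16.6 to 43.8). The fitted difference from batch 2 was 4.69 ± 0.70 (adjusted p = 0.00142), and without the WT culture of batch 3 it was 3.99 and no longer called (adjusted p = 0.0697). Against batch 1, where both libraries together held 2 *Lum* counts, the fitted value depends on the prior count: it was 7.56, and 11.5 and 5.92 without the KO or the WT culture of batch 1.

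*Sparc*, a matricellular protein that binds collagen and calcium and is made by many cell types in culture, had the smallest difference and the highest level per length. It was at 52.5, 56.7 and 129 CPM in KO and at 44.5, 43.8 and 144 CPM in WT. Batch 3 was higher by 1.51 ± 0.17 than batch 1 and by 1.46 ± 0.17 than batch 2 (edgeR, adjusted p = 0.000406 and 0.000319), a fold of 2.84 and 2.75.

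*Vim*, which encodes vimentin, was at 14.8, 16.6 and 157 CPM in KO and at 13.6, 15.6 and 132 CPM in WT. Its 4 libraries of batches 1 and 2 spanned a range of 13.6 to 16.6 CPM, and batch 3 was higher by 3.34 ± 0.17 and 3.16 ± 0.16 on the log2 scale (edgeR, adjusted p = 3.68e-06 and 5.54e-06), or 10.1-fold and 8.95-fold. Both cultures of batch 3 were thus well above the rest, with the KO culture the higher of the pair.

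The PDGF receptors bind growth factors that drive mesenchymal cells to divide and migrate, PDGFRα in fibroblasts and PDGFRβ in fibroblasts and pericytes. *Pdgfra* was at 16.3, 24.4 and 36.1 CPM in KO and at 6.61, 8.0 and 48.2 CPM in WT, and it was the only member whose libraries of batches 1 and 2 fell into separate KO and WT ranges with KO at more than 2-fold WT. Batch 3 was higher by 2.10 ± 0.42 than batch 1 and by 1.64 ± 0.41 than batch 2 (edgeR, adjusted p = 0.00859 and 0.0219). The size of both differences turned on single libraries. Against batch 1 the difference was 1.07 without the WT culture of batch 3, 2.95 without its KO culture, and 1.71 with the call lost (adjusted p = 0.0971) without the WT culture of batch 1. Against batch 2 it was 2.51 without the KO culture of batch 3 and 2.24 without the KO culture of batch 2, and the call was lost without the WT culture of batch 2 (1.03, adjusted p = 0.229) or of batch 3 (0.63, adjusted p = 0.108).

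*Pdgfrb* was at 2.63, 1.89 and 15.2 CPM in KO and at 4.73, 3.81 and 16.4 CPM in WT. It was higher in batch 3 by 2.18 ± 0.36 and 2.56 ± 0.37 than in batches 1 and 2 (edgeR, adjusted p = 0.0032 and 0.00117). *Thy1*, a glycosylphosphatidylinositol-anchored surface protein used to sort fibroblasts and also carried by T cells and neurons, had 11, 7 and 132 counts in KO and 9, 30 and 154 counts in WT. It was higher in batch 3 by 3.73 ± 0.74 and 3.13 ± 0.72 (edgeR, adjusted p = 0.00878 and 0.0143). The first difference was 3.19 (adjusted p = 0.0876) without the WT culture of batch 1 and 4.39 without its KO culture, and the second was 2.38 (adjusted p = 0.0959) without the KO culture of batch 2 and 4.24 without its WT culture.

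**Figure D2:**
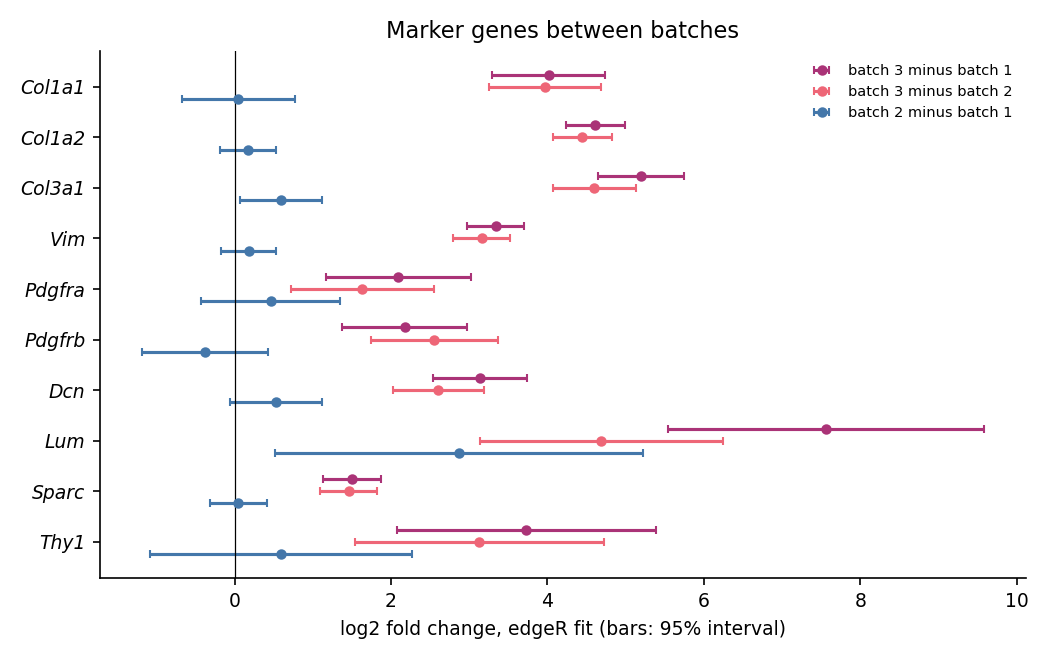
Differences between batches for each marker gene from the edgeR fit, as log2 fold change on the horizontal axis with 95% intervals; the 3 colours are the 3 pairs of batches. The intervals for batch 3 against batch 1 and against batch 2 lie above 0 for all 10 genes, whereas those for batch 2 against batch 1 reach 0 except for *Col3a1* and *Lum*, which did not pass the adjusted threshold.

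None of the 10 members differed between batches 2 and 1 (edgeR, adjusted p from 0.451 to 0.989), against 0.489% of all genes called in either direction. At an unadjusted p under 0.05 there were 2, *Col3a1* and *Lum*, against 8.38% of all genes, and DESeq2 also called 0. The differences ran from -0.38 (*Pdgfrb*) to 0.60 (*Thy1*) on the log2 scale, *Lum* with its 2 counts in batch 1 aside. The 95% interval excluded a doubling in either direction for *Col1a1*, *Col1a2*, *Vim* and *Sparc*, and it reached past a doubling for *Col3a1*, *Pdgfra*, *Pdgfrb*, *Dcn*, *Lum* and *Thy1*.

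Both libraries of batch 3 lay above the other 4 without overlap for all 10 members in CPM, as they did for 19.1% of all genes tested. A difference of over 4-fold from both other batches in the fit was met by 8 members, all but *Sparc* and *Pdgfra*, and by 1.64% of all genes. The median difference of the members was 3.54 against batch 1 and 3.15 against batch 2 on the log2 scale, where the medians over all genes tested were 0 and 0.02. The rise was seen in either condition: within the KO cultures alone, batch 3 was higher than batch 1 by 1.14 (*Pdgfra*) to 5.01 (*Col3a1*) in log2 CPM, and within the WT cultures by 1.69 (*Sparc*) to 5.32 (*Col3a1*), *Lum* left aside. Against batch 2 it was higher by 0.56 (*Pdgfra*) to 4.99 (*Col3a1*) within KO and by 1.71 (*Sparc*) to 4.41 (*Col1a1*) within WT, again without *Lum*.

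Since the members did not rise by the same factor, their order by level per length changed. In batches 1 and 2 the order of mean RPKM ran from *Sparc* (13.0) through *Vim* (3.20), *Dcn* (1.49), *Pdgfra* (1.38), *Col1a2* (0.746), *Col3a1* (0.651), *Pdgfrb* (0.596) and *Col1a1* (0.475) to *Thy1* (0.205) and *Lum* (0.0907). In batch 3 it ran from *Sparc* (36.1) and *Vim* (30.5) through *Col3a1* (18.5), *Col1a2* (17.1), *Dcn* (10.7), *Col1a1* (7.84), *Lum* (4.4) and *Pdgfra* (4.21) to *Pdgfrb* (2.89) and *Thy1* (2.08). *Col3a1* moved from place 6 to 3 and *Pdgfra* from place 4 to 8. Neighbours in these orders were often within the spread of the libraries, as *Dcn* (0.961 to 2.06 RPKM over the 4 libraries of batches 1 and 2) and *Pdgfra* (0.659 to 2.43) were, and as *Col3a1* (13.9 and 23.2) and *Col1a2* (14.3 and 19.9) were in batch 3. Among all genes tested, *Col1a2* stood at the 20.3rd to 26.7th percentile of RPKM in batches 1 and 2 and at the 78.6th and 84.7th in batch 3.

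**Figure D3:**
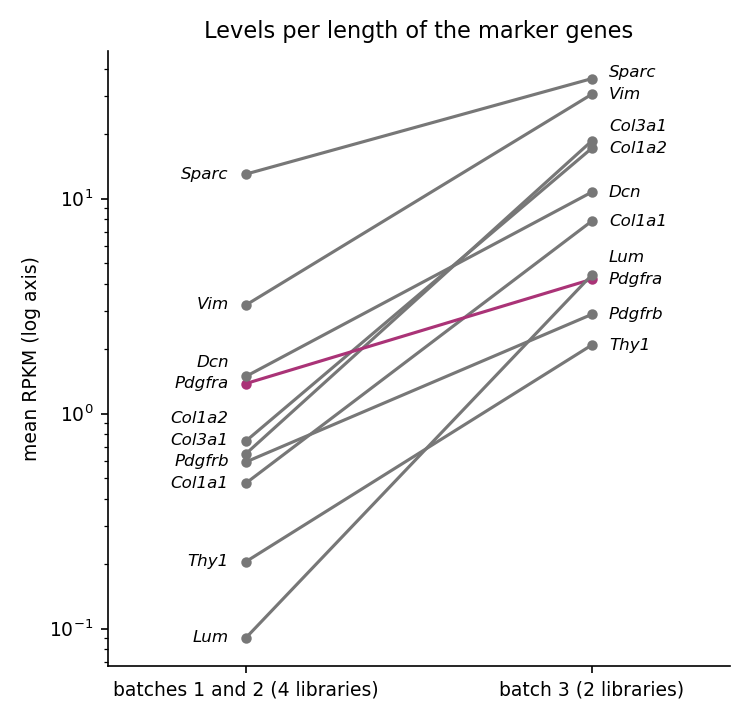
Mean RPKM of each marker gene on a log axis, over the 4 libraries of batches 1 and 2 on the left and the 2 of batch 3 on the right. The line of *Pdgfra*, in colour, is crossed by those of *Col1a2*, *Col3a1*, *Col1a1* and *Lum*, which rose by more.

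The members' levels were also set beside each other over the 6 libraries, which come from 3 batches, so that these correlations describe mostly the step to batch 3. Pearson's r of log2 CPM between 2 members ran from 0.553 to 0.995 over 45 pairs. With the mean of the other 9, r was lowest for *Pdgfra* (0.774) and *Pdgfrb* (0.907) and 0.951 to 0.992 for the other 8. The tested genes outside the list whose levels were most like the members' mean were *Rnaseh2b*, *Irf9*, *9130401M01Rik*, *Rnf114*, *Armc10*, *Spp1*, *Msl3*, *Thbs2*, *Tubg1* and *Dennd11*, with r from 0.996 to 0.991 over the 6 libraries. For most of these the step to batch 3 was small, such as 0.43 for *Dennd11* against batch 1. It was of the size of the members' for *Spp1*, which encodes the secreted matrix protein osteopontin (3.10 against batch 1), and *Thbs2*, which encodes the matricellular thrombospondin 2 (3.28).

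The second comparison, the one the study was built for, was iASPP KO against iASPP WT within batches. Of the 10 members 2 were lower in KO and 0 were higher (edgeR with a batch term, adjusted over all genes tested), where 1.95% of all genes were lower and 2.17% higher. DESeq2 gave the same counts, and at an unadjusted p under 0.05 the edgeR counts were 2 and 1, the last being *Pdgfra*, against 16.7% of all genes in either direction. The 2 called were *Col1a2* and *Col3a1*. *Col3a1* was lower in KO in all 3 batches, by 0.43, 1.44 and 0.74 in log2 CPM, and by 0.87 ± 0.18 in the fit (a KO to WT ratio of 0.546, adjusted p = 0.0269). *Col1a2* was lower by 0.45, 0.72 and 0.47, and by 0.55 ± 0.13 in the fit (a ratio of 0.685, adjusted p = 0.0428). Both calls were near the threshold. The call for *Col1a2* was lost without batch 1, 2 or 3 (adjusted p = 0.105, 0.275 and 0.238), and that for *Col3a1* without batch 2 (0.157) or batch 3 (0.0715), at fold changes that stayed within 1.5 times of those given. Both were lost in an edgeR fit with no batch term (adjusted p = 0.991 and 0.982), which called 0 of 14916 genes in either direction. That loss therefore says nothing particular to these 2 genes.

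*Col1a1* did not move with its partner chain in every batch. It differed by 0.18 and 0.05 in log2 CPM in batches 1 and 2, where 61 to 76 counts were behind each value, and was lower in KO by 0.97 in batch 3, where the counts were 819 and 1529. The fitted difference was -0.33 (95% interval -0.89 to 0.24, adjusted p = 0.6). That interval holds the values found for *Col1a2* and *Col3a1*, and whether the 3 genes differed in their response was not tested.

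The differences of *Pdgfra* within single batches did not share a direction. KO was above WT by 1.29 and 1.6 in log2 CPM in batches 1 and 2 (366 against 141 counts and 543 against 195), and below it by 0.42 in batch 3 (849 against 1083). Over the 3 batches the fitted difference was 0.81 ± 0.34 (95% interval 0.06 to 1.56), which missed the adjusted threshold (unadjusted p = 0.0375, adjusted p = 0.258). Without batch 3 it was 1.46 and called (edgeR, adjusted p = 5.79e-07). That fit leaves out the batch with the opposite direction, and it called 793 of all genes higher in KO, against 323 with all 3 batches. The difference of *Pdgfra* was also called with the looser filter of at least 1 count in 1 library (0.81, edgeR adjusted p = 0.00243). With 1 culture of each kind per batch, a difference in the response of *Pdgfra* between batches has no replicate to be tested against.

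*Pdgfrb* was lower in KO in all 3 batches, by 0.83, 0.98 and 0.11, and the fitted difference of -0.63 (95% interval -1.27 to 0.02) did not pass (adjusted p = 0.312). *Vim* was above WT in all 3 batches by 0.12, 0.08 and 0.26, and its fitted difference of 0.16 was also not called (-0.12 to 0.44, adjusted p = 0.611). KO lay below WT in all 3 batches for 19.7% of all genes and above it for 19.5%, and for 3 and 1 of the 10 members. *Sparc* differed by 0.24, 0.37 and -0.15 (fit 0.15, 95% interval -0.15 to 0.45) and *Dcn* by -0.61, 0.49 and 0.02 (fit -0.02, -0.48 to 0.45), so for *Vim*, *Sparc* and *Dcn* the intervals left out a change of 1.5-fold or more in either direction. *Lum* (fit -1.14, -2.52 to 0.25) and *Thy1* (-0.64, -1.94 to 0.66) were not called (edgeR, adjusted p = 0.413 and 0.666), and their intervals hold 0 as well as a level in KO more than 2-fold lower.

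**Figure D4:**
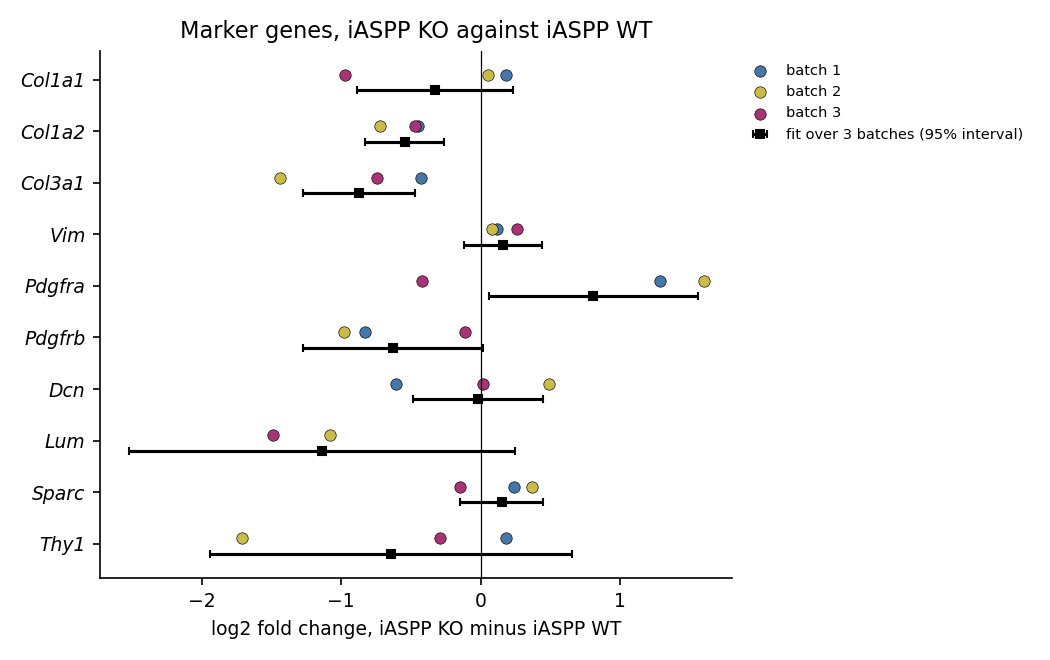
Difference between iASPP KO and iASPP WT for each marker gene as log2 fold change; black squares are the edgeR fit over 3 batches with 95% intervals, and coloured points are the differences of log2 CPM within each batch. *Col1a2* and *Col3a1* lie left of 0 in all 3 batches, the points of *Pdgfra* lie on both sides, and no point is drawn for *Lum* in batch 1, where the libraries held 2 and 0 counts.

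Further dermal fibroblast markers, a list of 30 other genes of which 23 were tested, were set beside the members. They followed the members between batches: 15 of the 23 were higher in batch 3 than in both other batches (3.85% of all genes), with a median difference of 2.37 against batch 1 and 2.27 against batch 2. Among them were *Dpt* (dermatopontin, 5.59 ± 0.75 against batch 1), *Pcolce* (the enhancer of procollagen C-proteinase, 4.35 ± 0.59), *Serpinf1* (PEDF, 4.14 ± 0.52) and *Col6a1* (a chain of the microfibrillar type VI collagen, 3.42 ± 0.34), with edgeR adjusted p of 0.00114, 0.00118, 0.000811 and 0.000226. *Col6a2* (3.33 ± 0.40) and the fibroblast transcription factor *Twist2* (3.79 ± 0.76) were higher too, and *Col6a3* was among the 6 with the largest difference from batch 2 (2.98 ± 0.23). *Col12a1*, named here after its values were seen, went the other way, lower in batch 3 by 1.02 ± 0.17 and 0.73 ± 0.17 (adjusted p = 0.00317 and 0.0145), from a mean of 404 CPM in batches 1 and 2. Between KO and WT, 0 of the 23 were called by edgeR or by DESeq2 and 1 at an unadjusted p under 0.05, where 4.12% of all genes were called in either direction, with a median difference of -0.06.

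Procollagen is hydroxylated, folded, trimmed and crosslinked by enzymes that many secretory cells also use. Of 25 tested genes of this list, 4 were higher in batch 3 than in both other batches (3.85% of all genes): *Pcolce*, *Pcolce2*, *Lox*, which crosslinks collagen (3.52 ± 0.37 against batch 1), and *Adamts2*, which trims procollagen (3.01 ± 0.50). *Pcolce* and *Loxl1* are in the dermal fibroblast list as well. *Loxl1*, a relative of *Lox*, was higher than in batch 1 (2.37 ± 0.66, edgeR adjusted p = 0.0409), and *Plod1*, a lysyl hydroxylase, and *Fkbp10*, a collagen chaperone, were higher than in batch 2 (1.16 ± 0.28 and 1.04 ± 0.29). The endoplasmic reticulum enzyme *P4hb* was lower in batch 3, by 0.66 ± 0.15 against batch 1 and 0.57 ± 0.15 against batch 2 (edgeR, adjusted p = 0.0181 and 0.0285). In KO against WT 1 of the 25 was called, where 4.12% of all genes were called in either direction. It was *P4ha1*, the catalytic subunit of prolyl 4-hydroxylase, lower in KO by 1.16, 0.97 and 0.81 in batches 1, 2 and 3 and by 0.98 ± 0.13 in the fit (edgeR, adjusted p = 0.00325). Among the relatives of *Dcn* and *Lum*, 3 of 11 were tested, and *Bgn* (biglycan) was higher in batch 3 by 4.56 ± 0.38 and 3.15 ± 0.34 (3.85% of all genes passed in both), while *Fmod* had no count in any library. *Aspn* (asporin) was called higher than in batch 1 (edgeR, adjusted p = 0.0334), as were 5.26% of all genes. It had 0, 2 and 55 counts in KO and 3, 14 and 56 counts in WT, and like *Lum* it passed the count filter only through batch 3. Of the 4 tested relatives of *Sparc*, *Fstl1*, which is also in the dermal fibroblast list, was higher in batch 3 by 2.48 ± 0.25 and 2.81 ± 0.25 (3.85% of all genes passed in both). *Smoc2* was higher than in batch 2 (1.90 ± 0.47, edgeR adjusted p = 0.0196), as were 7.39% of all genes.

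Genes of the switch between epithelial and mesenchymal states were described as lists of their own, which share *Twist1* with the other dermal fibroblast markers. Of 9 tested mesenchymal switch genes 2 were higher in batch 3 than in both others (3.85% of all genes), *S100a4* (2.70 ± 0.26 against batch 1, 1.87 ± 0.25 against batch 2) and the repressor *Zeb2* (1.17 ± 0.26 and 1.58 ± 0.27). *Twist1* was higher against batch 1 (2.37 ± 0.69, edgeR adjusted p = 0.0458). Of 10 epithelial identity genes 5 were lower in batch 3 than in batch 1 (8.4% of all genes) and the same 5 than in batch 2 (10.1%): *Grhl3* (by 1.68 ± 0.19 and 1.78 ± 0.19), *Ovol1* (by 1.36 ± 0.20 and 1.45 ± 0.20), *Crb3* (by 1.10 ± 0.16 and 1.35 ± 0.16), *Cdh1*, which encodes E-cadherin (by 0.69 ± 0.13 and 0.61 ± 0.13), and the splicing regulator *Esrp2* (by 0.59 ± 0.13 and 0.62 ± 0.13). *Epcam* was higher than in batch 1 (1.35 ± 0.27). In KO against WT 0 of the 9 mesenchymal switch genes were called by edgeR or DESeq2, where edgeR called 4.12% of all genes. At an unadjusted p under 0.05 in edgeR there were 3, against 16.7% of all genes. Of the 10 epithelial genes 1, *Crb3*, was higher in KO by 0.59 ± 0.13 (edgeR, adjusted p = 0.0341), against 2.17% of all genes.

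**Figure D5:**
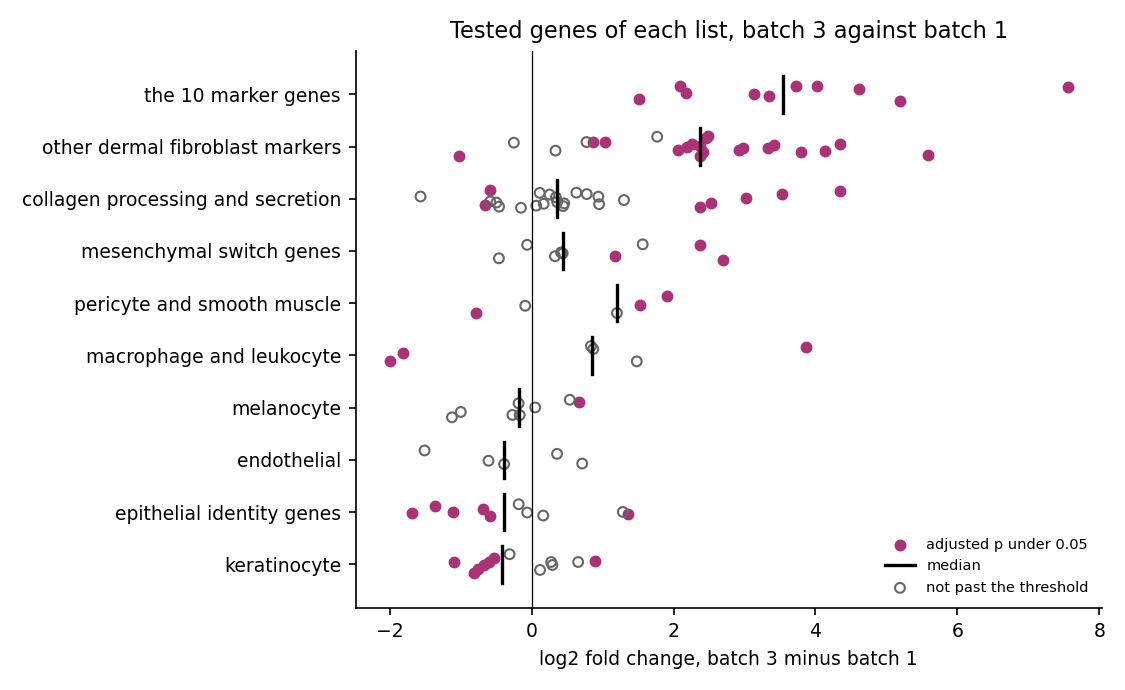
Difference between batch 3 and batch 1 for the tested genes of 10 lists, as log2 fold change from the edgeR fit; filled points passed the adjusted threshold, open points did not, and the bar is the median of a list. The medians of the 10 marker genes (3.54) and of the other dermal fibroblast markers (2.37) are the highest shown. Those of the keratinocyte (-0.42), epithelial (-0.39), endothelial (-0.39) and melanocyte (-0.18) lists lie below 0.

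Keratinocyte markers stayed dominant in each library and their summed level of 33240 and 34210 CPM in batch 3 lay within the range of 33140 to 39840 CPM in the others. Of 12 genes 6 were lower in batch 3 than in batch 1 (8.4% of all genes), among them the desmosome genes *Dsp* (by 1.09 ± 0.13), *Perp* (by 0.81 ± 0.13) and *Dsg3* (by 0.60 ± 0.13) and the hemidesmosome genes *Col17a1* (by 0.76 ± 0.20) and *Itga6* (by 0.68 ± 0.14), and 1 was higher, *Lgals7* (0.90 ± 0.25). Against batch 2, *Dsp*, *Dsg3* and *Perp* were lower (by 0.82 ± 0.13, 0.58 ± 0.13 and 0.45 ± 0.13), and *Lgals7* and the basal keratin *Krt15* were higher (1.57 ± 0.25 and 2.39 ± 0.45). Of the 12, 0 were called between KO and WT by edgeR or DESeq2 (2 at an unadjusted p under 0.05). Over all genes, edgeR called 4.12% in either direction, and 16.7% had an unadjusted p under 0.05. *Krt5* and *Krt14* were not called in any pair of batches.

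Other cell types that could be present in skin cultures were checked in the same way, and their part in the marker levels was not tested. For pericytes and smooth muscle 5 of 10 genes were tested. *Cspg4*, which encodes NG2, and *Acta2*, smooth muscle actin, were higher in batch 3 than in batch 1 (1.90 ± 0.38 and 1.52 ± 0.25), and *Notch3* was lower (by 0.79 ± 0.18). The same held against batch 2 (2.36 ± 0.39 and 2.03 ± 0.25 higher, and lower by 0.94 ± 0.18). Of all genes, 5.26% were higher and 8.4% lower against batch 1, and 7.39% and 10.1% against batch 2. In KO against WT, where the 2 collagen genes were lower, 3 of the 5 were lower as well, against 1.95% of all genes: *Cspg4* (by 1.44 ± 0.31), *Acta2* (by 1.07 ± 0.20) and *Mcam* (by 0.88 ± 0.12), with edgeR adjusted p of 0.0311, 0.0197 and 0.00398. *Notch3* (0.23 ± 0.15) and *Tagln* (-0.47 ± 0.46) were not called. The untested *Rgs5*, *Kcnj8*, *Abcc9*, *Des* and *Myh11* had at most 19 counts in any library, and *Myh11* had more in KO in each batch. The summed level of the list was 199 to 293 CPM in KO and 329 to 420 CPM in WT. Most of it came from *Mcam*, *Notch3* and *Acta2*, with *Mcam* alone at a mean of 111 CPM in KO and 203 CPM in WT.

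The macrophage and leukocyte genes called against batch 1 did not share a direction. *Lyz2* was higher in batch 3 by 3.87 ± 0.26 than in batch 1, whereas *Csf1r* and *Cd68* were lower, by 2.01 ± 0.27 and 1.81 ± 0.21 (edgeR, adjusted p = 2.88e-05, 0.00119 and 0.00057). Of all genes, 5.26% were higher and 8.4% lower. The summed level of the 14 genes was 44.1 to 71.2 CPM in batches 1 and 2 and 69.3 and 91.4 CPM in batch 3, 6 of the 14 were tested, and *C1qc* had no count. Some untested genes had most of their counts in batch 3. *Mrc1* had 0, 9 and 100 counts in KO and 0, 2 and 55 in WT. *Tyrobp* had 3, 6 and 53 in KO and 0, 0 and 27 in WT, and *C1qa* 0, 0 and 48 in KO and 0, 0 and 13 in WT. *Cd74* and *C1qb* had at most 8 counts in any library. Against batch 2 the same 3 genes were called in the same directions, and *Adgre1*, which encodes the macrophage antigen F4/80, was called higher, with 21, 1 and 54 counts in KO and 11, 0 and 15 counts in WT (edgeR, adjusted p = 0.0307). *Csf1r*, 1 of the 6 tested, was higher in KO by 1.11 ± 0.21 (edgeR, adjusted p = 0.0206), against 2.17% of all genes. Of 8 melanocyte genes 5, *Pmel*, *Tyrp1*, *Tyr*, *Mlana* and *Dct*, were lower in batch 2 than in batch 1 by 1.14 to 1.57 (0.322% of all genes), and the summed level of the 8 was 369.9 and 442 CPM in batch 2 against 922 to 1152 CPM elsewhere. The same 5 genes were higher in batch 3 than in batch 2 (7.39% of all genes), and *Dct* was also higher than in batch 1 (0.67 ± 0.17, edgeR adjusted p = 0.0296).

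Endothelial genes summed to 11.98 and 19.02 CPM in batch 3 and 15.2 to 26.6 CPM in the others. Of 5 tested 0 were called between batch 3 and batch 1 by edgeR or DESeq2 (1 at an unadjusted p under 0.05), where edgeR called 13.7% of all genes. Against batch 2, *Egfl7* was higher (1.23 ± 0.37, edgeR adjusted p = 0.0422), whereas DESeq2 called 0 of the 5 higher and 1 lower. Of the 5 tested genes of the Schwann cell list *Mbp* was higher in KO (0.78 ± 0.18, edgeR adjusted p = 0.0427), against 2.17% of all genes. It was lower in batch 3 than in batch 2 (by 0.87 ± 0.22), as were 10.1% of all genes. Of the adipocyte list *Fabp4* was lower in batch 3 than in batches 1 and 2 (by 1.70 ± 0.24 and 2.26 ± 0.24; 8.4% and 10.1% of all genes), with *Adipoq* at 0 in each library. The T cell, mast cell and skeletal muscle lists summed to at most 6.89 CPM in any library, with *Cd3d*, *Cd3e*, *Trac*, *Fcer1a*, *Ms4a2* and *Myod1* at 0 counts in all 6, which allows up to 0.141 CPM in each.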

How the data were processed

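The study sequenced ribosome-depleted RNA of the 6 cultures as single reads of 42 bases. Per the labels and the study's methods, the authors trimmed reads with cutadapt 2.10, aligned them to mm10 with STAR 2.7.3 and counted reads per gene name with featureCounts 2.0.0, reading the strand. The deposited values used here are whole-number counts per gene and library, with the summed exon length of each gene (a deposited column of bases, used for RPKM). A second deposited table holds the authors' own comparison of KO with WT and was not used. Replicate numbers are batches, and the labels name the batch.

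Counts were fitted with edgeR 4.0.16 (R 4.3.3): genes kept by filterByExpr (14916 of 55367), TMM scaling, quasi-likelihood tests with terms for batch and condition, Benjamini-Hochberg over all genes tested, threshold 0.05. CPM (counts per 1e6) and RPKM (CPM per kilobase of exon) use TMM-scaled library sizes, and log2 CPM adds a prior count of 2. Values ± are SE of the fit, taken from the test's F value, unless given as SD. Counts per library are 20202517 to 25157117, and PCR duplicates were not marked by molecular identifiers, so intervals from counts cover counting error only. Nothing says whether the batches are separate litters, so p-values measure the spread between these samples. KO and WT cultures of a batch deviated together (r = 0.302, 0.368 and 0.568, against -0.427 to 0.179 for other pairs), and the batch term is the pairing. No 2 libraries of a group agreed within sampling noise (chi-square per gene 39.7 or more). The tests were run on simulated data first.

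Alternatives were DESeq2 1.42.0, other scalings, filters and dispersion, no batch or condition term, and each batch or library left out. The members and lists were chosen with earlier results of these data known. Named are all members, list genes past the threshold (at most 6 a list and comparison, by size), cell type markers at 0, the 10 genes most like the members' mean, and *Ppp1r13l*. *Krt5* and *Krt14*, keratins of basal keratinocytes, were added to check the label. Untested and uncalled genes of the pericyte and leukocyte lists were added after their values were seen.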

Additional observations from a re-analysis of the deposited data

How the results depend on the processing

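Of 481 values recomputed for single members, 449 kept their direction and their side of the threshold, 19 lost a call, 3 gained one and 10 changed sign. The batch 3 calls of *Col1a1*, *Col1a2*, *Col3a1*, *Vim*, *Dcn* and *Sparc* held under all alternatives, and 8 to 10 members were called against either batch under each. For *Pdgfra* against batch 2 the call was lost with DESeq2 (adjusted p = 0.105), robust dispersion (0.074) and no condition term (0.184), and with no condition term also against batch 1 (0.114), as for *Pdgfrb* against batch 1 (0.0509) and *Thy1* against batch 2 (0.0571). The causes were not tested.

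With no replicate block (no batch term) 0 members were lower in KO, as were 0 of all genes, and with 1 batch left out 0 to 1 members were. The number higher in KO was 1 with a filter of 1 count in 1 library and 0 to 1 with a batch left out. Between batches 2 and 1, 0 to 1 members were called with a library left out: *Col3a1* without the KO culture of batch 3 (0.59, adjusted p = 0.0479). The values that changed sign were all uncalled: *Col1a1* in KO against WT without batch 3 (0.12, of a range from -0.54 with 1 batch left out), *Dcn* in KO against WT with no replicate block (0.026) and without batch 1 (0.25), and between batches 2 and 1, with 1 library left out, *Col1a1* (-0.30 to 0.43), *Pdgfra* (-0.26 to 0.95), *Sparc* (-0.13 to 0.21) and *Thy1* (-0.49 to 1.37).

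Counts over all genes, added after seeing the data, were 291 lower and 323 higher in KO, 491 and 624 with the looser filter, 0 and 0 with no replicate block, 151 and 169 without batch 1, 117 and 174 without batch 2, and 662 and 793 without batch 3. Genes called among batches fell from 2354 to 415 with no condition term. Genes higher in batch 3 than in batch 1 numbered 784, but 146 with no condition term and 293 and 305 without the KO or the WT culture of batch 1. Against batch 2 they numbered 1103, but 189 with no condition term and 499 and 441 without the KO or the WT culture of batch 2. *Lum* and *Thy1* had no value where 10 counts were required in every library, and *Lum* none without batch 3.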

Other observations

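Genes of the signals that act on fibroblasts were described by their counts. Of the 4 PDGF ligands, 0 were called in KO against WT by edgeR or DESeq2 (1 at an unadjusted p under 0.05). Over all genes, edgeR called 4.12% in KO against WT, and 16.7% had an unadjusted p under 0.05. *Pdgfb* was higher in batch 3 than in batch 2 (1.61 ± 0.38, edgeR adjusted p = 0.017). Of 17 genes of the TGF-beta pathway, the latent TGF-beta binding proteins *Ltbp1* (0.87 ± 0.19 against batch 1, 1.14 ± 0.19 against batch 2) and *Ltbp2* (2.78 ± 0.61 and 2.25 ± 0.59) were higher in batch 3, where 3.85% of all genes passed in both. The signal transducer *Smad3* was higher than in batch 2 (0.69 ± 0.20, edgeR adjusted p = 0.0356), and the receptor *Tgfbr2* was lower in batch 3 (by 0.56 ± 0.13 and 0.49 ± 0.13). Of all genes, 7.39% were higher than in batch 2, and 8.4% and 10.1% were lower than in batches 1 and 2. In KO against WT, 0 of the 17 were called by edgeR, 1 by DESeq2 and 2 at an unadjusted p under 0.05 by edgeR, beside the same shares of all genes. Among intermediate filament genes related to *Vim*, 2 of 5 were tested, and *Synm* (synemin) was higher in batch 3 than in batch 2 (2.07 ± 0.62, edgeR adjusted p = 0.0439).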
